A study of Mus musculus with 6 samples.

Results

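The 10 genes described here encode the subunits of protein phosphatase 1 (PP1) that act on glycogen. The 7 glycogen-targeting subunits are Ppp1r3a to Ppp1r3g, and the 3 catalytic subunits are Ppp1ca, Ppp1cb and Ppp1cc. They were taken from the count table by gene symbol, and all 10 were found among its 24470 genes. RNA was sequenced from whole testes of mouse embryos at E12.5 (embryonic day counted from the plug), in 3 control and 3 conditional knockout (cKO) samples, each a pool of 2 gonad pairs. Control embryos had the genotype Ppp1r3c f/f, and cKO embryos the genotype Sf1-Cre Ppp1r3c f/f, so that both groups carried floxed Ppp1r3c alleles and the cKO embryos also carried the Cre. Per the study's methods, both mouse lines were kept on a C57BL/6 background. The Cre was driven by sequences of Nr5a1 (Sf1), which is expressed in somatic cells of the gonad, so germ cells, blood and endothelial cells are not its targets and keep the gene. The comparison of cKO with control testes asks whether another targeting subunit, or a catalytic subunit, was more abundant where Ppp1r3c had been deleted.

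PP1 is a serine/threonine phosphatase whose catalytic subunit has little specificity of its own. A glycogen-targeting subunit binds the catalytic subunit through a short RVxF-type motif and holds it on the glycogen particle, where PP1 removes inhibitory phosphates from glycogen synthase and the activating phosphate from glycogen phosphorylase, so that synthesis is favoured over breakdown. Sertoli cells, the supporting cells of the testis cords, store glycogen in the fetal mouse testis. Ppp1r3c encodes PTG (protein targeting to glycogen), which is expressed in many tissues, while Ppp1r3a and Ppp1r3b are best known from striated muscle and from liver.

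Stretches of the coding sequence were compared to show how alike the transcripts are that the counting had to tell apart. The 3 catalytic genes were 73.8% identical between Ppp1ca and Ppp1cb, 76.8% between Ppp1ca and Ppp1cc, and 73.8% between Ppp1cb and Ppp1cc over their aligned coding sequences. The following windows of 60 bases are the most alike of the 3 genes, and each lies in 1 coding exon of a GENCODE M21 transcript on GRCm38 (mm10), at chr19:4194838-4194897 on the plus strand for Ppp1ca, chr5:32487637-32487696 on the plus strand for Ppp1cb and chr5:122173212-122173271 on the plus strand for Ppp1cc. Capitals mark the 8 positions at which the 3 genes are not all identical.
Ppp1ca: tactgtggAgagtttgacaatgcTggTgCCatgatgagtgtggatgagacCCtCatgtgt
Ppp1cb: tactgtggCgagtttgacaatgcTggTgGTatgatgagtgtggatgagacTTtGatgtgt
Ppp1cc: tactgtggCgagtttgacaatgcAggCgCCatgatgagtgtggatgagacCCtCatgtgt

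Even here 52 of 60 bases were shared and not all. The longest run of identical coding bases was 20 between Ppp1ca and Ppp1cb, 44 between Ppp1ca and Ppp1cc, and 23 between Ppp1cb and Ppp1cc, which is shorter than a sequenced read in each case. The targeting subunits are less alike. Ppp1r3c and Ppp1r3b were 55.0% identical over the coding sequence, and their most similar coding window of 60 bases is printed with the 13 differing positions in capitals, from chr19:36733773-36733832 on the minus strand for Ppp1r3c and from chr8:35384470-35384529 on the plus strand for Ppp1r3b.
Ppp1r3c: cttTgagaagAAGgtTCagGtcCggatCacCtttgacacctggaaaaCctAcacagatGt
Ppp1r3b: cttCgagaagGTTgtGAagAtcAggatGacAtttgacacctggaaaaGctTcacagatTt

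The longest run that both shared was 16 bases. No window of 50 bases along the Ppp1r3c transcript occurred in an annotated transcript of any other gene. Among annotated transcripts, copies at other loci were a limit for 1 gene. Copies outside the annotation, or on the opposite strand, were not searched. Of the 2335 windows of 50 bases along the Ppp1cc transcript, 1373 (58.8%) also occurred in transcripts of 5 genes at other loci (Ppp1ccb, Gm14122, Gm5754, Gm9231 and Gm9315), none of which is a row of the count table. A window of 50 bases is shorter than a sequenced read, so this is not the share of reads that could not be placed. That share was not measured, and the level of Ppp1cc is uncertain to this extent. In Ppp1r3b the share was 0.372%, and the other 8 genes, Ppp1r3c included, shared no such window with a gene at another locus. Ppp1r3f and Ppp1ca overlap genes on the opposite strand, Flicr over 682 bases and Rad9a over 222 bases, and the counting was strand-specific. Of the 4711 windows along the Ppp1r3f transcript, 2323 also occurred in the same direction in Gm36995, a gene at the same locus. The part of Gm36995 in the counts of Ppp1r3f was not tested.

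In the mm10 coordinates of the count table, Ppp1r3c lies at chr19:36731731-36736604 on the minus strand, with 2 coding exons. On the same chromosome, Ppp1ca lies at chr19:4192174-4195419 on the plus strand. The other catalytic genes share chromosome 5, with Ppp1cb at chr5:32458970-32493712 and Ppp1cc at chr5:122158279-122175269, both on the plus strand, and the 3 catalytic genes have 7 to 8 exons. The other targeting genes are spread over 6 chromosomes, with Ppp1r3a at chr6:14713822-14755274, Ppp1r3d at chr2:178411206-178414463, Ppp1r3e at chr14:54875597-54877538 and Ppp1r3f at chrX:7558562-7574281 on the minus strand, and Ppp1r3b at chr8:35375741-35388139 and Ppp1r3g at chr13:35967906-35970388 on the plus strand. Ppp1r3b, Ppp1r3d and Ppp1r3g are each encoded in 1 coding exon, and Ppp1r3a and Ppp1r3f have the longest coding sequences, of 3267 and 2400 bases, against 951 bases for Ppp1r3c.

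Library totals ranged from 16139487 (control replicate 1) to 44145158 counts, and TMM factors from 0.989 to 1.009. In cKO replicate 3 Xist stood at 379 CPM (counts divided by the TMM-adjusted size of the library and brought to a common scale), against at most 1.0 CPM in every other library, and the summed level of 7 pre-granulosa genes was 303.7 CPM against 123 to 140 CPM. Foxl2, which defines pre-granulosa cells, stood there at 7.56 CPM and elsewhere at 0.431 to 1.22 CPM. Fst, another of the 7, stood there at 50.9 CPM and elsewhere at 0.366 to 2.02 CPM. Lgr5, also of the 7, was lowest there, at 35.7 CPM against 36.1 to 42.1 CPM elsewhere. Whether that pool held tissue of a female gonad was not tested. None of the 7 genes passed the edgeR test between the groups, and DESeq2 called 0. An unadjusted edgeR p under 0.05 was found for 4 of them (11.4% over all tested genes). A test between groups cannot address a deviation that lies in 1 library. Sertoli cell markers were abundant in all libraries, with a summed level of 2325 to 2859 CPM in control and 2364 to 2920 CPM in cKO testes. Of the 14 Sertoli cell markers, 8 had a log2 fold change above 0 and 6 below, and edgeR and DESeq2 called 0. An unadjusted edgeR p under 0.05 was found for 3 of them, all higher in cKO testes (11.4% over all tested genes, either direction). The 15 tested germ cell markers of 16 all had a lower mean in cKO testes, with a summed level of 583 to 972 CPM in control and 278 to 611 CPM in cKO testes. None of the germ cell markers passed the edgeR test, 13 had an unadjusted edgeR p under 0.05, and DESeq2 called 3 of them. Over all genes, 49.1% of those tested by edgeR lay above 0 and 11.4% had an unadjusted p under 0.05. DESeq2 called 0.779% of the genes to which it gave an adjusted p. In whole testes, fewer cells of a type and less RNA per cell cannot be told apart. The part of these differences in the results for the PP1 genes was not tested, except where values without cKO replicate 3 are given.

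The catalytic subunits were far more abundant than the targeting subunits, and Ppp1ca led. Levels are compared between genes only as CPM per kilobase (kb) of exon. Ppp1ca, the alpha form of the catalytic subunit, stood at 221, 238 and 218 CPM per kb in the 3 control samples and at 225, 223 and 235 CPM per kb in the 3 cKO samples. Ppp1cb, the beta form, which also serves the myosin phosphatases of muscle and non-muscle cells, stood at 76.6, 83.7 and 85.9 CPM per kb in control and at 79.8, 78.8 and 83.1 CPM per kb in cKO samples. Ppp1cc, the gamma form, of which 1 splice product is needed for sperm formation in the adult testis, stood at 69.7, 67.7 and 66.9 CPM per kb in control and at 65.5, 63.7 and 64.7 CPM per kb in cKO samples. No sample of one gene reached the range of the next, so that the order Ppp1ca, Ppp1cb, Ppp1cc held in each of the 6 libraries.

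The order among Ppp1cb and Ppp1cc depended on the length used. With the longest transcript of each gene, or with the Ppp1cc length reduced to the part not shared with other loci, Ppp1cc came before Ppp1cb. Per unshared kb the control level of Ppp1cc was 165 ± 3.56 CPM (SD, n = 3), against 82.1 ± 4.83 CPM (SD, n = 3) for Ppp1cb. This level divides all counts of Ppp1cc by the unshared length, so it holds only if no count came from the shared part. Any count from the shared part would make it too high. Ppp1ca was the highest under each of these lengths. As control means by merged exons, Ppp1ca took 60.03% of the summed catalytic level, Ppp1cb 21.8% and Ppp1cc 18.1%. By the unshared length, under that same condition, the shares were 47.7%, 17.4% and 35.0%. By the longest transcript they were 63.4%, 16.8% and 19.8%.

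Ppp1r3c was the leading targeting subunit of the control testis. It stood at 9.13, 8.25 and 8.57 CPM per kb in the control samples, a mean of 8.65 ± 0.445 CPM per kb (SD, n = 3), which was 45.8% ± 2.31 (SD, n = 3) of the summed level of the 7 targeting subunits. The next was Ppp1r3e, a glycogen-targeting subunit described from liver and muscle, at 3.86, 4.59 and 4.61 CPM per kb. The control mean of Ppp1r3c was 1.99 times that of Ppp1r3e, and the ranges of the 3 control samples did not overlap. Ppp1cc, the least abundant catalytic gene by merged exons, stood 7.87 times above Ppp1r3c in control samples.

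Below Ppp1r3e came a pair at nearly the same level. Ppp1r3f, a targeting subunit known from brain, stood at 2.47, 2.05 and 2.45 CPM per kb in the control samples. Ppp1r3d, a widely expressed targeting subunit also called R6, stood at 2.12, 2.17 and 2.02 CPM per kb. Their ranges overlapped, and Ppp1r3f was the higher of the pair in 4 of 6 libraries, so their order is not settled. Ppp1r3b, the subunit of liver, followed at 1.12, 1.23 and 1.46 CPM per kb.

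The last 2 targeting subunits were close to the limit of detection. Ppp1r3g, a hepatic subunit that responds to feeding, had 6, 20 and 15 counts in the control samples, or 0.160, 0.196 and 0.159 CPM per kb. Ppp1r3a, the subunit of striated muscle, had 0, 14 and 11 counts in control samples and 13, 11 and 6 counts in cKO samples. The 0 in the shallowest library allows up to 0.185 CPM by the limit of 3 counts, which covers counting error only, and the other 5 libraries lay between 0.181 and 0.324 CPM. The summed level of 6 muscle markers was 4.28 to 7.81 CPM over the 6 samples.

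Neighbours in this order were compared within the 6 libraries, as a description, since the order was set by the same libraries. For 6 of the 7 pairs without Ppp1r3c, the gene placed first was higher in 6 of 6 libraries. The control means differed by 2.75 times for Ppp1ca over Ppp1cb, by 1.21 times for Ppp1cb over Ppp1cc, by 1.87 times for Ppp1r3e over Ppp1r3f, by 1.66 times for Ppp1r3d over Ppp1r3b, by 7.39 times for Ppp1r3b over Ppp1r3g and by 6.13 times for Ppp1r3g over Ppp1r3a. The longest transcript placed Ppp1r3d before Ppp1r3f and Ppp1cc before Ppp1cb. The plot of levels by gene shows the wide step between the catalytic and targeting genes.

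**Figure D1:**
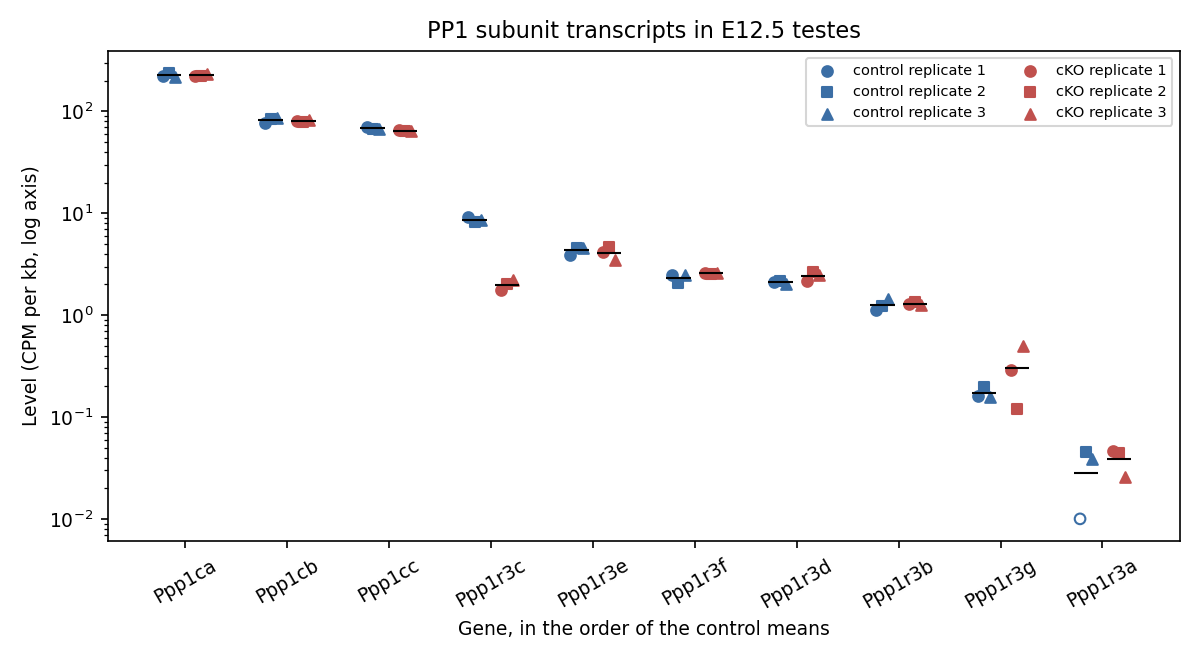
Level of each of the 10 genes in each sample (vertical axis, CPM per kb of exon, log scale), in the order of the control means, with control samples in blue, cKO samples in red and the mean of each group as a black line. The open symbol at the bottom marks the control sample with 0 counts of Ppp1r3a, which has no place on a log axis. Ppp1r3c moves from the fourth place, at 8.65 CPM per kb, to the seventh, at 1.997 CPM per kb, and the other 9 genes keep their order.

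Ppp1r3c itself fell in the cKO testes, which is the deletion that the labels state and not a finding. Its counts were 397, 976 and 940 in control samples and 189, 193 and 197 in cKO samples, or 24.4, 22.1 and 22.9 CPM against 4.71, 5.37 and 5.96 CPM. The log2 fold change was -2.11 (edgeR FDR 0.000126, SE 0.111), and Ppp1r3c ranked first by p among the 15577 genes tested. The cKO samples kept 20.4%, 23.2% and 25.7% of the control mean, and the libraries hold RNA of cells that the Cre does not target. The sources used here do not say which stretch of Ppp1r3c is floxed. Counts from untargeted cells, from target cells that kept the gene and from a stretch left in place cannot be told apart. With this remainder, Ppp1r3c was the seventh of the 10 genes in the cKO testes, between Ppp1r3d and Ppp1r3b.

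None of the other 9 PP1 genes passed the test. edgeR called 6 of the 15577 tested genes at an FDR below 0.05 (0.0385%, with 0.0321% higher and 0.00642% lower in cKO testes), and Ppp1r3c was 1 of them. At an unadjusted p under 0.05, where edgeR had 1770 genes (11.4%), Ppp1r3c was also the only one of the 10, and DESeq2, which called 111 genes (0.779%), called Ppp1r3c and no other of the 8 members to which it gave an adjusted p. For 3 of the 10 genes the cKO and control values did not overlap, with Ppp1r3c and Ppp1cc on the lower side in cKO testes and Ppp1r3f on the higher side. Over all tested genes the groups did not overlap for 15.6% (8.42% higher and 7.18% lower in cKO testes). Without cKO replicate 3, Ppp1r3c (log2 fold change -2.20) was again the 1 member called. An exact two-sided permutation test of 3 against 3 samples cannot give a p below 0.1, and the p-values measure only the spread between these pooled samples.

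Ppp1r3d and Ppp1r3f had a higher mean in cKO testes and did not pass the test. Ppp1r3d stood at 6.89, 7.08 and 6.59 CPM in control and at 7.03, 8.67 and 8.04 CPM in cKO samples, so that 1 cKO sample lay within the control range. Its log2 fold change was 0.21 (SE 0.129, 95% interval -0.08 to 0.50, edgeR FDR 0.561). Ppp1r3f, on the X chromosome, stood at 8.62, 7.15 and 8.56 CPM in control and at 9.05, 8.79 and 9.10 CPM in cKO samples. All 3 cKO samples lay above the controls, by a narrow margin over control replicates 1 and 3 (exact permutation p 0.1). The log2 fold change of Ppp1r3f was 0.15 (SE 0.120, 95% interval -0.12 to 0.42, edgeR FDR 0.648), and it was 0.055 without control replicate 2.

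Ppp1r3b and Ppp1r3e were near their control levels. Ppp1r3b stood at 4.86, 5.36 and 6.34 CPM in control and at 5.56, 5.84 and 5.47 CPM in cKO samples, with all cKO values inside the control range. Its log2 fold change was 0.017 (edgeR FDR 0.978, SE 0.146), and the interval of the change ran from -19.4% to 27.0% of the control level. Ppp1r3e stood at 7.14, 8.51 and 8.54 CPM in control and at 7.70, 8.56 and 6.38 CPM in cKO samples, with the lowest value in cKO replicate 3. Its log2 fold change was -0.10 (SE 0.145, 95% interval -0.43 to 0.22, edgeR FDR 0.822) and 0.0023 without that replicate.

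Ppp1r3g had a higher mean in cKO testes, from very few counts, and did not pass the test. The cKO samples had 27, 10 and 38 counts, or 0.673, 0.278 and 1.15 CPM, against 0.369, 0.453 and 0.366 CPM in the control samples. Replicate 2 of the cKO group lay below every control sample and replicates 1 and 3 above every one. The log2 fold change was 0.79 (SE 0.489, 95% interval -0.31 to 1.89, edgeR FDR 0.561). It was 0.26 without cKO replicate 3, the library with the high Xist level, and 1.17 without cKO replicate 2 (95% interval 0.27 to 2.06, edgeR FDR 0.468). For Ppp1r3a the log2 fold change was 0.22, with an interval from -1.16 to 1.60 (edgeR FDR 0.914) and a value of 0.83 with limma-voom and of -0.10 without control replicate 1, so that a wide span of gains and losses was not detectable at this depth.

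The catalytic subunits were measured with the narrowest intervals. Ppp1ca had a log2 fold change of 0.011 (edgeR FDR 0.956, SE 0.0544), and the interval of the change ran from -7.40% to 9.71% of the control level. For Ppp1cb the log2 fold change was -0.028 (edgeR FDR 0.885, SE 0.0574), with an interval from -10.3% to 7.28%. Ppp1cc stood at 166, 161 and 159 CPM in control and at 156, 151 and 154 CPM in cKO samples. All 3 cKO samples lay below the controls (exact permutation p 0.1), with a log2 fold change of -0.075 (edgeR FDR 0.568, SE 0.0473) and an interval from -11.8% to 2.20%. This is the gene whose counts are uncertain because of its copies.

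**Figure D2:**
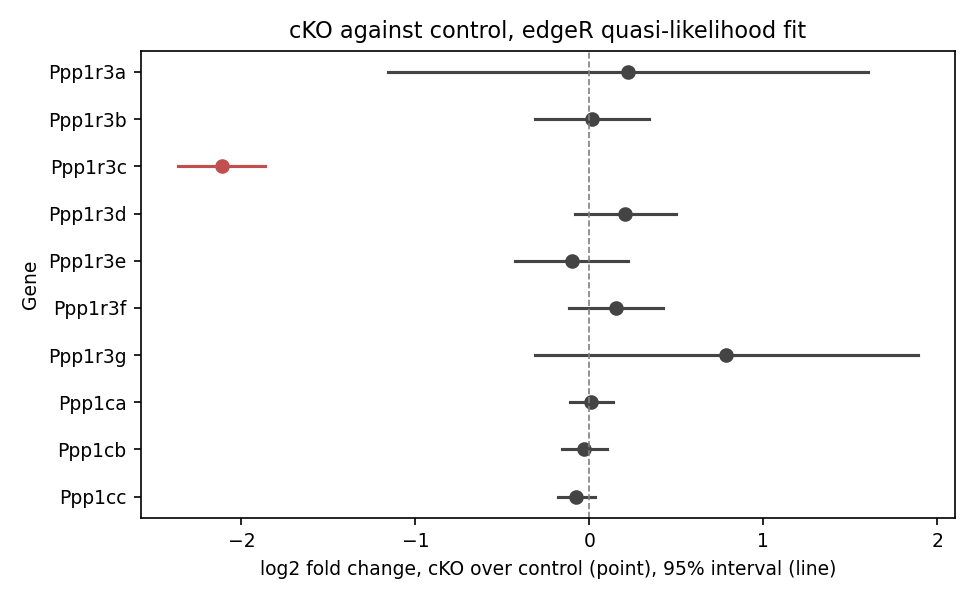
Log2 fold change of each of the 10 genes, cKO over control (horizontal axis), with the point at the edgeR estimate and the line over its 95% interval, in red for the called gene Ppp1r3c and in grey for the others. Except for Ppp1r3c, at -2.11, every interval includes 0, and those of Ppp1r3a and Ppp1r3g are the widest.

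The summed level of the targeting subunits followed Ppp1r3c. The sum over the 7 genes was 18.8, 18.5 and 19.3 CPM per kb in control samples and between 12.3 and 13.3 CPM per kb in cKO samples, a decrease of the mean by 32.8%, so the groups were far apart. Without Ppp1r3c, the other 6 genes summed to 9.71, 10.3 and 10.7 CPM per kb in control and to 10.5, 11.3 and 10.3 CPM per kb in cKO samples. These ranges overlapped, and the mean of 10.2 ± 0.512 CPM per kb in control samples and of 10.7 ± 0.528 CPM per kb in cKO samples (SD, n = 3 each) differed by 4.53%.

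The level that was lost can be set against the difference in the other targeting subunits. Ppp1r3c lost 6.65 CPM per kb. The mean sum of the other 6 was higher by 0.464 CPM per kb in cKO samples, which is 6.98% of that loss. The ranges of this sum overlapped, so a gain is not established. Its lowest cKO value was that of cKO replicate 3, the library with the high Xist level. With each of the 6 genes taken at the upper end of its own 95% interval at the same time, the gain would be 3.25 CPM per kb, or 48.8% of the loss. By itself, Ppp1r3d at its upper end would make up 13.0% of the loss, Ppp1r3f 11.9%, Ppp1r3e 11.0%, Ppp1r3g 6.96%, Ppp1r3b 5.14% and Ppp1r3a 0.858%. These are levels of transcripts in the whole testis, and levels of the proteins were not measured here.

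**Figure D3:**
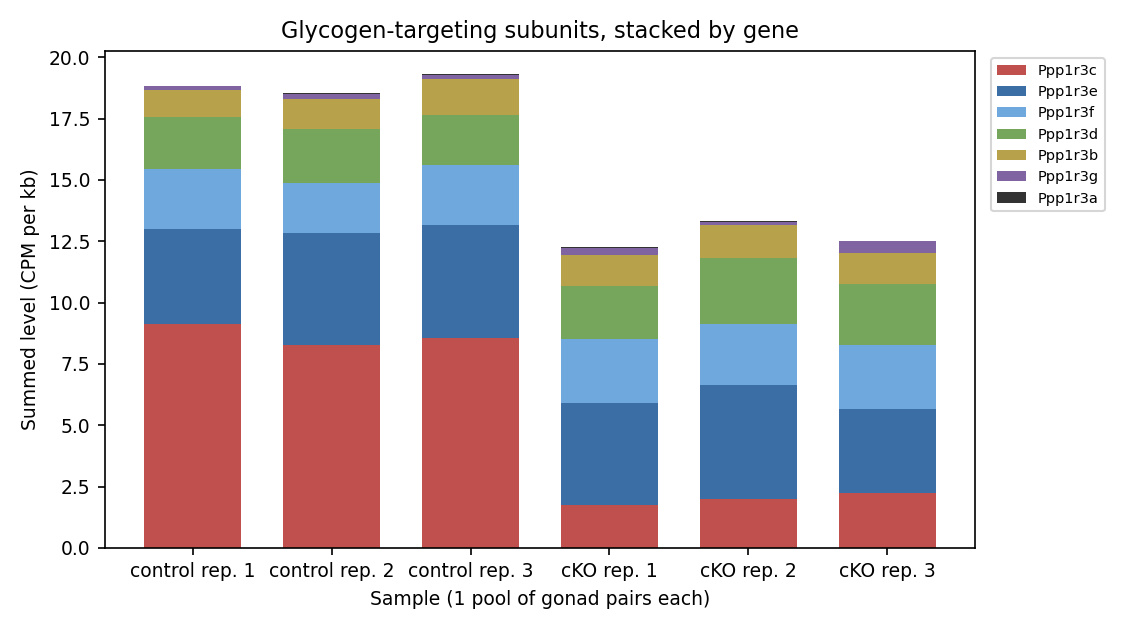
Summed level of the 7 glycogen-targeting subunits (vertical axis, CPM per kb of exon) in each sample, with 1 colour for each gene. The red segment of Ppp1r3c shrinks in the cKO samples, and the summed height falls from a control mean of 18.9 to a cKO mean of 12.7 CPM per kb, while the segments above it sum to 10.2 and 10.7 CPM per kb.

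The make-up of the targeting transcripts changed with the loss of Ppp1r3c. Its share of the sum went from 45.8% to 15.7% ± 1.81 (SD, n = 3). Ppp1r3e then held the largest share, 32.0% against 23.0% in control, followed by Ppp1r3f with 20.3% against 12.3% and Ppp1r3d with 19.1% against 11.1%. Ppp1r3b held 10.2% against 6.70%, Ppp1r3g 2.42% against 0.909% and Ppp1r3a 0.306% against 0.148%. As the shares sum to the whole, they must rise when 1 gene falls, and they are no sign of a higher level. The 3 catalytic genes summed to 376 ± 12.01 CPM per kb in control and 373 ± 8.87 CPM per kb in cKO samples (SD, n = 3 each). The catalytic sum was 19.5, 21.0 and 19.2 times the targeting sum in the control samples and 30.1, 27.5 and 30.5 times in the cKO samples, with no overlap. The targeting sum includes the deleted Ppp1r3c, so this difference is part of the deletion and not a separate finding.

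The glycogen substrates and partners of PP1 had no called gene. These are proteins on which the targeted phosphatase acts, or with which it shares the particle, most of them enzymes and kinases. Of 19 listed genes in the table, 18 were tested. Of these, 12 had a log2 fold change above 0 and 6 below, where 49.1% of all tested genes lay above 0, and the median log2 fold change was 0.022 against -0.0034 over all tested genes. The groups did not overlap for 4 higher genes and 1 lower gene of the 18 (15.6% over all tested genes), and 6 of the 18 had an unadjusted edgeR p under 0.05 (11.4% over all tested genes), 5 of them higher, while DESeq2 called 0 of the 17 to which it gave an adjusted p. Gbe1, the branching enzyme, stood at 16.8 CPM in control and 20.4 CPM in cKO testes (log2 fold change 0.28, edgeR FDR 0.377, SE 0.0870). Phkg1, the muscle form of the catalytic subunit of phosphorylase kinase, stood at 0.852 CPM in control and 0.423 CPM in cKO testes (log2 fold change -1.02, edgeR FDR 0.377, SE 0.342).

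The main substrate of the targeted phosphatase is glycogen synthase, and its gene is described although it was picked after its values were seen. Gys1, the form outside the liver, stood at 79.5, 75.4 and 77.3 CPM in control and at 83.4, 83.0 and 86.1 CPM in cKO samples. All cKO samples lay above the controls, with a log2 fold change of 0.12 (95% interval -0.0021 to 0.25, edgeR FDR 0.443). Gys2, the liver form, had 0 to 3 counts in a library and was not tested. Pygb, the brain form of glycogen phosphorylase and likewise picked afterwards, stood at 168, 178 and 183 CPM in control and at 187, 194 and 219 CPM in cKO testes (log2 fold change 0.18, edgeR FDR 0.389).

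**Figure D4:**
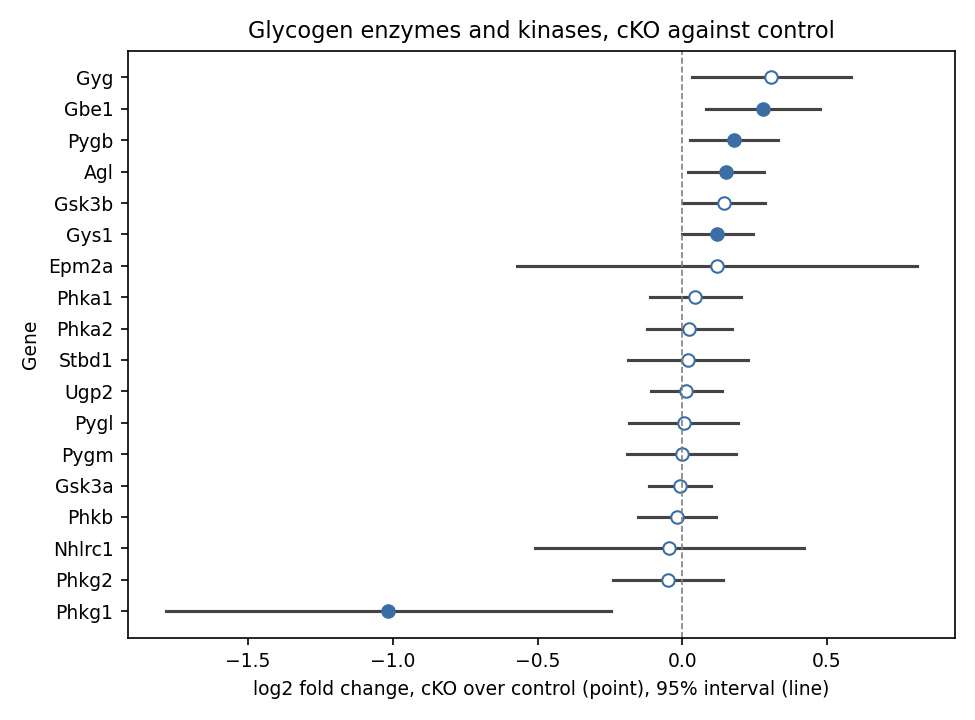
Log2 fold change, cKO over control, of the 18 tested glycogen substrates and partners of PP1 (horizontal axis), with the point at the edgeR estimate and the line over its 95% interval. Filled points mark the 5 genes whose groups did not overlap, and no gene passed the test, the lowest edgeR FDR being 0.377.

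The lists of PP1 inhibitors and of other PP1 targeting subunits had no gene called by edgeR or DESeq2 either. Whether their products compete with the glycogen-targeting subunits for the catalytic subunit was not tested. Over all tested genes, 49.1% lay above 0, 11.4% had an unadjusted edgeR p under 0.05, and the groups did not overlap for 15.6%. Of 13 PP1 inhibitors in the table, 11 were tested, 6 with a log2 fold change above 0 and 5 below. Among these, 1 had an unadjusted edgeR p under 0.05, and the groups did not overlap for 1 higher and 2 lower genes. The median log2 fold change was 0.028. Ppp1r14c, an inhibitor of the CPI-17 family, stood at 4.62 CPM in control and 6.08 CPM in cKO testes (log2 fold change 0.39, edgeR FDR 0.402, SE 0.152). Ppp1r8, which encodes the nuclear inhibitor NIPP1, had a log2 fold change of -0.10 (edgeR FDR 0.582). Of 32 other PP1 targeting subunits, 31 were tested, 13 with a log2 fold change above 0 and 18 below. Among these, 4 had an unadjusted edgeR p under 0.05, and the groups did not overlap for 0 higher genes and 1 lower gene. The median log2 fold change was -0.024. Cdca2, which brings PP1 to mitotic chromosomes, stood at 91.6 CPM in control and 76.7 CPM in cKO testes (log2 fold change -0.26, edgeR FDR 0.377, SE 0.0622), and Kif18a, a kinesin of the mitotic spindle that binds PP1, had a log2 fold change of -0.29 (edgeR FDR 0.402, SE 0.113).

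The genes whose log2 CPM followed that of Ppp1r3c most closely over the 6 samples were Mageb4 (Pearson r 0.998), Tefm (0.989) and Dxo (0.988). The 6 points form 2 groups, so these correlations describe a difference between the groups and carry no test. Of 13792 genes compared, 101 had an r above 0.9. Mageb4, a MAGE family gene at only 0.673 to 1.88 CPM, had a log2 fold change of -1.28 (edgeR FDR 0.377). Tefm, a mitochondrial transcription elongation factor, had one of -0.44, and Dxo, a decapping enzyme, one of -0.22 (edgeR FDR 0.377 each). None of them passed the test.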

How the data were processed

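The deposited values were raw counts of read pairs per gene, with no normalization. The authors aligned stranded mRNA libraries to mm10 with STAR 2.5 and counted RefSeq genes strand-specifically with featureCounts (Subread 1.5.0-p1). Groups and replicate numbers came from the sample labels. The PP1 genes and all gene lists were chosen with earlier results of these data known.

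All genes were fitted together with edgeR 4.0.16 in R 4.3.3 (filterByExpr with a minimum count of 10, TMM, quasi-likelihood test of cKO against control, no covariates), and p-values were adjusted over the 15577 tested genes by the Benjamini-Hochberg method. Genes with an FDR below 0.05 are termed called. Standard errors and 95% intervals were derived from the F statistic, and log2 CPM used a prior count of 2. No gene list was tested as a set.

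For levels between genes, CPM were divided by merged exon length, taken from GENCODE M21 transcripts linked to RefSeq accessions and trimmed to the gene span of the table. A sign-flip test of neighbours in the order of levels is not reported, since the same libraries set the order. Longer or shorter annotated ends would change these levels, and multi-mapped reads could be lost from Ppp1cc. Alternatives were DESeq2 1.42.0, limma-voom 3.58.1, RLE size factors, no filter and a stricter filter (3 samples with a CPM of 1 or more), the replicate block, each sample left out in turn, the longest transcript, plain library totals and no length. The unshared length was added after seeing the data. The tests were tested on simulated data.

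Named genes were all 10 members, their overlapping genes, Xist, and the called genes and the 2 of lowest p within each of the lists of glycogen partners, PP1 inhibitors and other PP1 targeting subunits, and the 3 genes with a mean CPM of at least 1 that were most correlated with Ppp1r3c. Foxl2, Fst, Lgr5, Gys1, Gys2 and Pygb lie outside this rule and were chosen after their values were seen.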

Additional observations from a re-analysis of the deposited data

How the results depend on the processing

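Ppp1r3c was called under each of the 12 alternatives of the test (log2 fold change -2.20 to -2.03 when single samples were left out), and no other member was, the lowest FDR of any other member being 0.403. DESeq2 gave Ppp1r3a and Ppp1r3g no adjusted p. Over all genes, the count of 6 called became 111 with DESeq2, 3 with the replicate block and 2 to 8 with single samples left out (2 where control replicate 1 or control replicate 3 was left out, 3 where cKO replicate 3 was). Same-numbered samples did not deviate together (correlations of -0.20, -0.27 and -0.13), so no pairing by number was assumed, and the replicate block left Ppp1r3c as the 1 member called.

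Some signs changed. With limma-voom the log2 fold change of Ppp1r3b was -0.0017, and that of Ppp1r3a, 0.22 as reported, was 0.83, above the 0.55 of Ppp1r3g in that fit. Leaving out single samples gave -0.057 to 0.13 for Ppp1r3b, -0.10 to 0.60 for Ppp1r3a, -0.20 to 0.0023 for Ppp1r3e, -0.021 to 0.043 for Ppp1ca and -0.074 to 0.00012 for Ppp1cb. It also gave medians of -0.060 to 0.066 for the PP1 inhibitors and -0.011 to 0.064 for the glycogen partners, and a log2 ratio of the summed catalytic level of -0.031 to 0.014. The log2 ratio of the summed targeting level, -0.57 as reported, was -0.52 without division by length. The log2 ratio of Ppp1cb to Ppp1cc, 0.29 as reported, was -0.21 with the longest transcript and -0.99 with the unshared length, and that of Ppp1r3f to Ppp1r3d, 0.11 as reported, was -0.33 with the longest transcript. Depth limits Ppp1r3a and Ppp1r3g, with at most 38 counts in a library.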
